A study of Bactrocera dorsalis with 6 samples.

Results

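In the oriental fruit fly Bactrocera dorsalis, 50 of 10799 unigenes (0.463%) had transcripts mainly in the libraries of unmated adults. They are 0.521% of the 9596 unigenes with an egg count, the only ones that could be chosen, since the deposited table lists the other 1203 at 0 in every library. With levels recomputed for those, 130 unigenes met the rule. A unigene is a gene model assembled from the reads and can hold several isoforms. The members were chosen by their FPKM, a read number corrected for transcript length and library depth, scaled between libraries with TMM (trimmed mean of M values) factors. Each had at least 11 FPKM in males and in the library labelled female and less than 4 FPKM in eggs, larvae, pupae and mated females, or at least 26 FPKM in both adult libraries and less than 11 FPKM in the other 4 libraries. The first pair of bounds alone was met by 26 members, the second alone by 23, and both by 1, comp15270_c0. All FPKM of the 6 libraries were used in the choice, so the levels, ratios and ranks below are descriptions and were not tested.

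The series surveyed gene expression over the life cycle with RNA of whole insects of a laboratory colony, reared as larvae on liquid artificial diet and given no treatment, with 1 library for each of 6 stages. The adult libraries were males and females separated by sex at emergence, kept unmated and sampled daily for 7 days. The other stages were eggs (daily samples over 3 days), larvae (10 days), pupae (10 days) and mated females, which were taken from mating cages after the unmated adults had been collected. Daily RNA extractions of a stage were pooled in equal parts. With 1 library per stage, no difference between stages has a replicate check. Age, mating and the eggs carried differ together between unmated and mated females and cannot be told apart here. In whole insects, fewer cells of a type and less RNA per cell cannot be told apart either.

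Expected counts totalled 7386960 to 9905262 per library. The sex of the library labelled female was checked with dsx (doublesex, comp25690_c0), whose transcripts are spliced differently in males and females of flies. Its dsx isoform shares differed by 21.8 percentage points, summed over isoforms, from those of males and by 85.4 points from those of mated females. The unigene comp24600_c0 was at 0.18 FPKM in males and 0.84 FPKM in the labelled female library, against 5625 FPKM in mated females. It was picked from these data as the highest unigene of mated females alone. Its low level in the other adult libraries was fixed by that choice and says nothing on the label. Across all unigenes the Spearman coefficient of males and the library labelled female was 0.991, with the unigenes sharing libraries and assembly. The dsx shares and this coefficient leave the label in doubt. Every statement on both adult libraries may thus describe males and a library much like theirs. Any difference of the library labelled female from mated females may then also be one of sex. It cannot be told apart from age, mating or the eggs carried. When the library labelled female was left out of the rule, 72 unigenes qualified, which included all 50 members. When the male library was left out, 58 qualified, again with all 50.

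Adult tephritid flies emerge with the cuticle, flight muscle and sense organs of the adult largely built in the pupa, and become sexually mature over the following days. Juvenile hormone, made by the corpora allata, holds larvae in the larval state and in adults of many insects promotes maturation of the ovary and of the male accessory glands. It is carried in the haemolymph by binding proteins. After maturation, much of the RNA of a gravid female fly is that of the ovary, so that a library of whole mated females mixes body tissues with developing eggs.

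In males the members ranged over 11.74 to 158.42 FPKM with a median of 26.4 FPKM, and in the library labelled female over 11.06 to 152.65 FPKM with a median of 23.0 FPKM. Medians were 0.13 FPKM in eggs, 0.115 FPKM in larvae, 3.78 FPKM in pupae and 0.23 FPKM in mated females. The pupal library was the highest of the other 4 libraries for 42 members, mated females for 7 and larvae for 1, comp30442_c0. The lower of the male and labelled female levels was between 2.78 and 19.6 times the highest other library, with a median of 4.30 times. Members together took 0.309% of all counts in males (30584 counts, 95% Wilson interval 0.305 to 0.312), and 0.291% of those in the library labelled female (25134 counts, 0.288 to 0.295). They took 0.0120% in eggs (885 counts), 0.0118% in larvae (885 counts), 0.0539% in pupae (4239 counts) and 0.0192% in mated females (1723 counts). These and all further intervals are at the 95% level and cover counting error only.

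**Figure D1:**
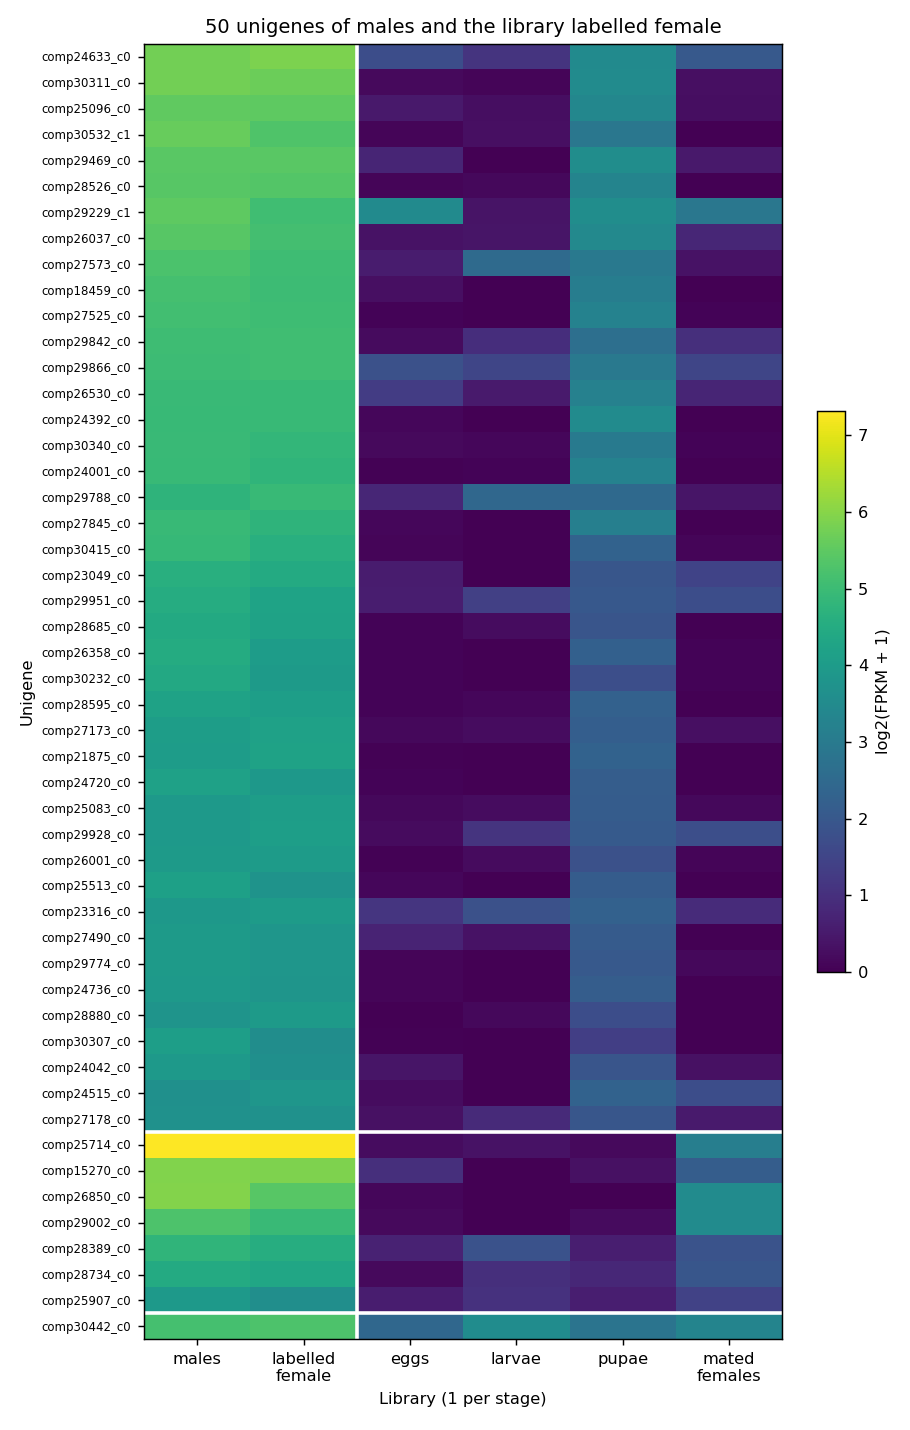
Level of each of the 50 members in the 6 libraries, as log2(FPKM + 1) by colour, with unigenes down the side and 1 library per column. White lines part the 42 members with pupae as the next highest library from the 7 with mated females and the 1 with larvae. The pupal column is of intermediate colour for the first block and dark for the second, and the egg and larval columns are dark for most members.

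By unigene FPKM, the 7 members with mated females as the next highest library held the 3 highest male levels of all. The highest was comp25714_c0, with 158.42 FPKM in males and 152.65 FPKM in the labelled female library, against 0.19 FPKM in eggs, 0.29 FPKM in larvae, 0.13 FPKM in pupae and 7.79 FPKM in mated females. Its counts were 1562 in males and 1324 in the labelled female library, against 2 in eggs, 2 in larvae, 1 in pupae and 83 in mated females. The male level was 20.3 times that of mated females (interval 16.3 to 25.7). No annotation of this unigene was used.

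Second by the mean unigene FPKM of both adult libraries came comp15270_c0, the only member that met both pairs of bounds. It was the only member with an entry in the protein annotation used here, so the other members could not show a domain. That entry gave a haemolymph juvenile hormone binding protein domain with a signal peptide. Proteins with this domain carry juvenile hormone in moths, and the domain is also found in the takeout proteins of D. melanogaster. It had 59.68 FPKM in males and 58.66 FPKM in the labelled female library, against 0.98 FPKM in eggs, 0 FPKM in larvae, 0.26 FPKM in pupae and 3.5 FPKM in mated females. Its counts were 584 in males and 505 in the labelled female library, against 10 in eggs, 0 in larvae, 2 in pupae and 37 in mated females. Eggs, pupae and larvae were thus near or at 0, and mated females held 5.92% of the mean of both adult libraries. The male level was 17.1 times that of mated females (interval 12.2 to 24.5), and that of the library labelled female 16.8 times (12.0 to 24.1).

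The unigene comp26850_c0, whose D. melanogaster ortholog is listed as FBgn0034509, had 61.28 FPKM in males and 41.70 FPKM in the labelled female library, against 0.10 FPKM in eggs, 0 FPKM in larvae, 0 FPKM in pupae and 10.53 FPKM in mated females. It was the only member with 0 pupal counts. With the pupal count set to a floor of 3, it was 157-fold higher in males and 107-fold higher in the library labelled female. By exact intervals its lower limits were 127-fold and 86.5-fold. Its level in mated females, from 111 counts, was the highest of any member and lay just under the bound of 11 FPKM. The second highest in mated females was comp29002_c0, with 37.82 FPKM in males and 30.21 FPKM in the labelled female library, against 0.13 FPKM in eggs, 0 FPKM in larvae, 0.17 FPKM in pupae and 10.47 FPKM in mated females. Males were only 3.61 times above mated females for comp29002_c0 (interval 3.04 to 4.31), the smallest such fold of the 50 members.

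Further members of this group, comp28389_c0, comp28734_c0 (ortholog FBgn0033558) and comp25907_c0, were at lower levels. They had 26.46, 21.38 and 14.20 FPKM in males and 22.41, 19.21 and 11.34 FPKM in the labelled female library, against 2.66, 2.87 and 1.72 FPKM in mated females. All 3 had some larval signal, at 2.56, 0.98 and 1.08 FPKM in larvae. Pupae held between 0 and 4.23% of the mean of both adult libraries over the 7 members, and mated females between 5.01% and 30.8%.

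**Figure D2:**
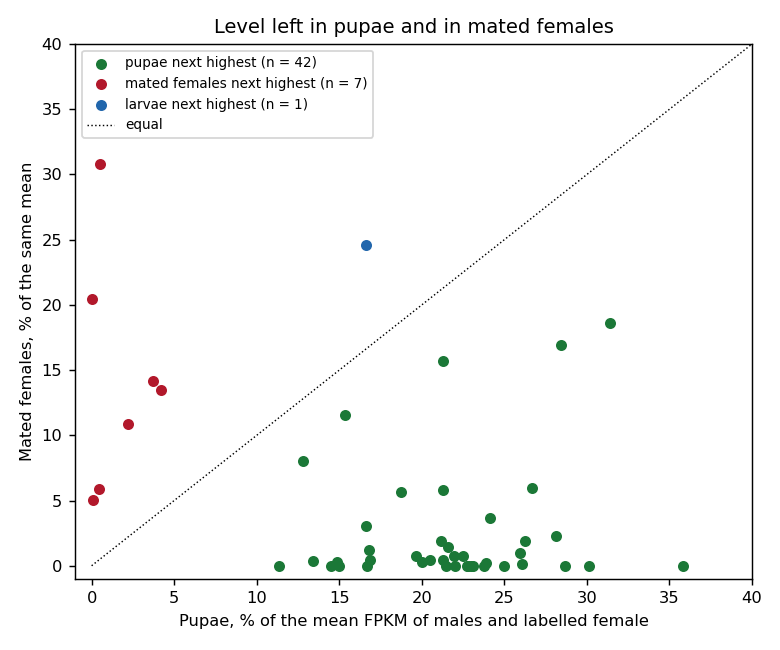
Level in mated females against the level in pupae for the 50 members, each as a percent of the mean FPKM of males and the library labelled female. The 7 members with mated females next lie at pupal values of 4.23% or less, while the 42 members with pupae next lie between 11.4% and 35.8% on the pupal axis, most of them near 0% on the other.

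The 42 members with pupae as the next highest library held between 11.4% and 35.8% of the mean of both adult libraries in pupae, with a median of 21.8%. Of all 50 members, 26 lay between 20% and 30%. For 38 of the 42, the exact Poisson interval of the pupal level was apart from that of mated females. The 42 were grouped by pupae being the next highest library, so the direction was fixed by the grouping. The same count was not made over all unigenes, and nothing is read from it. The pool of 10 days does not show how these levels varied over the pupal stage.

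By unigene FPKM, the highest levels in this class were those of comp30311_c0 (ortholog FBgn0052436) and comp24633_c0. This measure uses a length set by the egg isoform mix, on which levels and ranks of members with several isoforms depend. Isoform seq2 of comp30311_c0 has 2074 bp, against 5596 bp for the unigene. It was alone at 87.68 FPKM in males and 77.36 FPKM in the labelled female library. For comp30311_c0 the values were 53.35 FPKM in males and 50.51 FPKM in the labelled female library, against 0.13 FPKM in eggs, 0.08 FPKM in larvae, 10.65 FPKM in pupae and 0.22 FPKM in mated females. This member rested on the most counts of the 50, with 2746 in males and 2287 in the labelled female library, against 7 in eggs, 3 in larvae, 432 in pupae and 12 in mated females. Males stood 5.01 times above pupae (interval 4.53 to 5.56) and 247 times above mated females (141 to 479). For comp24633_c0, a short unigene of 683 bp, the values were 52.69 FPKM in males and 57.18 FPKM in the labelled female library, against 2.29 FPKM in eggs, 1.13 FPKM in larvae, 10.30 FPKM in pupae and 3.09 FPKM in mated females.

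Next in level was comp25096_c0 (ortholog FBgn0031240), at 45.64 FPKM in males and 44.08 FPKM in the labelled female library, against 0.42 FPKM in eggs, 0.21 FPKM in larvae, 9.54 FPKM in pupae and 0.20 FPKM in mated females. Similar values were found for comp29469_c0 (ortholog FBgn0038163), at 42.21 FPKM in males and 42.37 FPKM in the labelled female library, against 0.68 FPKM in eggs, 0 FPKM in larvae, 10.96 FPKM in pupae and 0.41 FPKM in mated females. Both adult libraries agreed closely for these unigenes, with male to labelled female ratios of 1.04 (interval 0.921 to 1.16) for comp25096_c0 and 0.996 (0.872 to 1.14) for comp29469_c0.

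Several members were at or near 0 counts in mated females, although the depth of that library, 8986331 counts, was the second highest. No count was found there for 15 members, and 1 to 3 counts for another 10. The highest of those at 0 was comp30532_c1, with 48.44 FPKM in males and 38.59 FPKM in the labelled female library, against 0.08 FPKM in eggs, 0.23 FPKM in larvae, 6.51 FPKM in pupae and 0 FPKM in mated females. The deepest of them was comp28526_c0 (ortholog FBgn0034435), with 1452 counts in males and 1216 in the labelled female library, against 3 in eggs, 3 in larvae, 240 in pupae and 0 in mated females. Its levels were 42.02 FPKM in males and 40 FPKM in the labelled female library, against 0.08 FPKM in eggs, 0.12 FPKM in larvae and 8.81 FPKM in pupae.

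The exact interval of a count of 0 reaches up to 3.69 counts. A lower value, 3 counts, was taken here as the floor of the mated female library. With the count set to this floor, comp28526_c0 was 523-fold higher in males and 498-fold higher in the library labelled female than in mated females. The lower limits of its exact intervals, which cover counting error of both libraries, were 425-fold and 404-fold. Over the 15 members at 0, the folds at the floor ran from 59.4 to 523 in males and from 47.9 to 498 in the library labelled female. With the floor used for every member at 3 counts or fewer, the median over all 50 members was 77.7-fold for males and 73.9-fold for the library labelled female. Over pupae the same medians were 5.0-fold for males and 4.74-fold for the library labelled female. On the scale of log2(FPKM + 1), medians over the members were 4.05 for males over mated females, 3.91 for the library labelled female over mated females, 2.06 for males over pupae and 2.04 for the library labelled female over pupae. Over all 10799 unigenes each of these 4 medians was 0. Of these unigenes, 1203 are listed at 0 FPKM in every library, which makes their log2 ratios 0 whatever their counts. Over the 4272 unigenes with at least 11 FPKM in both adult libraries, the medians were 0.152, 0.097, 0.074 and 0.039 in the same order.

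With 1 FPKM added to both values, as for the log2 medians, males were at least 4-fold above mated females for 47 of the 50 members and for 6.37% of all unigenes. For the library labelled female against mated females the numbers were 47 members and 6.89% of all unigenes. Against pupae, 30 members and 3.72% of all unigenes were at least 4-fold higher in males, and 27 members and 3.51% of all unigenes in the library labelled female. In plain FPKM, 48 members were at least 4-fold above mated females in males and 48 in the library labelled female, and 41 and 37 members were so above pupae. The bounds of the choice use the same values, so nothing is read from these counts.

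Levels in eggs and larvae were low for most members, though both lay below pupae and mated females for only 11. Egg FPKM was below 1 for 44 members and larval FPKM for 40, and 20 members had 0 larval counts. Egg counts were 1 for 15 members and at most 3 for 28 members. No member had 0 egg counts, since unigenes without an egg count are listed at 0 FPKM whatever their other counts.

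The highest egg level was that of comp29229_c1, with 44.01 FPKM in males and 32.60 FPKM in the labelled female library, against 10.39 FPKM in eggs, 0.30 FPKM in larvae, 10.90 FPKM in pupae and 6.47 FPKM in mated females. As a unigene it was thus present in eggs, pupae and mated females and low in larvae alone. All 197 of its counts in mated females were on isoform seq4. That isoform held 1.05% of its counts in males, 1.36% in the labelled female library and 0.826% in pupae. Isoforms seq2 and seq6, which held the rest in those libraries, had 0 counts in mated females. Another member of the same assembly component, comp29229_c2, is no member and had 0.99 FPKM in males and 2.11 FPKM in the library labelled female. The next highest egg levels among members with pupae next were 2.52 FPKM for comp29866_c0 (ortholog FBgn0040038), 2.29 FPKM for comp24633_c0 and 1.44 FPKM for comp26530_c0 (ortholog FBgn0052396).

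The only member with larvae as the next highest library, comp30442_c0, had 34.99 FPKM in males and 37.52 FPKM in the labelled female library, against 4.49 FPKM in eggs, 10.81 FPKM in larvae, 6.03 FPKM in pupae and 8.91 FPKM in mated females. None of its 6 libraries was near 0, with at least 257 counts in each, and males were 3.93 times above mated females (interval 3.57 to 4.33). Larval levels of 4.72 FPKM for comp27573_c0 and 4.44 FPKM for comp29788_c0 (ortholog FBgn0031952) followed. For comp27573_c0, which had several D. melanogaster matches and may share reads with related genes, levels were 37.05 FPKM in males and 32.31 FPKM in the labelled female library, against 0.46 FPKM in eggs, 6.82 FPKM in pupae and 0.27 FPKM in mated females. For comp29788_c0 they were 26.25 FPKM in males and 29.26 FPKM in the labelled female library, against 0.71 FPKM in eggs, 4.66 FPKM in pupae and 0.34 FPKM in mated females. A unigene of the same assembly component, comp29788_c1, had a like order of levels and just missed the bounds, with 17.41 FPKM in males and 16.80 FPKM in the labelled female library, against 0.42 FPKM in eggs, 4.04 FPKM in larvae, 3.06 FPKM in pupae and 0.30 FPKM in mated females. Reads of such neighbours may have been divided between them in the assembly.

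Pupae came closest to the adult libraries for comp24392_c0, at 35.8% of their mean, with 29.47 FPKM in males and 29.66 FPKM in the labelled female library, against 10.59 FPKM in pupae and 0 FPKM in mated females. It had 2 egg counts and 0 larval counts. Next were comp24515_c0 (ortholog FBgn0032004) at 31.4%, comp24001_c0 (ortholog FBgn0037985) at 30.1% and comp27845_c0 (ortholog FBgn0040371) at 28.7%. Among these 4, comp24515_c0 alone had counts in mated females, 26 of them, for 2.33 FPKM. The lowest pupal share of the class was the 11.4% of comp30307_c0, with 16.07 FPKM in males and 11.06 FPKM in the labelled female library, against 0.03 FPKM in eggs, 0 FPKM in larvae, 1.54 FPKM in pupae and 0 FPKM in mated females.

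Levels in males and in the library labelled female were close for every member. The ratio of males to the library labelled female lay between 0.869 and 1.47 with a median of 1.1. Males were higher for 34 members (68%) and lower for 16, against 60.6% higher over the 4272 unigenes with at least 11 FPKM in both. With the same bounds for other sets of libraries, males were higher for 79.3% of the 82 unigenes of pupae, males and labelled female. The share was 79.1% for the 43 of males, labelled female and mated females, so a lean to males is not particular to the members. On the log2(FPKM + 1) scale the median was 0.13, against 0.05 over the 4272 unigenes with at least 11 FPKM in both. With 1 FPKM added, males were 1.2-fold or more higher for 14 members, against 16.2% of those 4272 unigenes, and 1.2-fold or more lower for 0 members, against 6.27% of them. The counting interval of the ratio lay above 1 for 16 members, below 1 for 4 and held 1 for 30. Intervals were not counted in this way over all unigenes, so nothing about the members is read from these numbers.

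**Figure D3:**
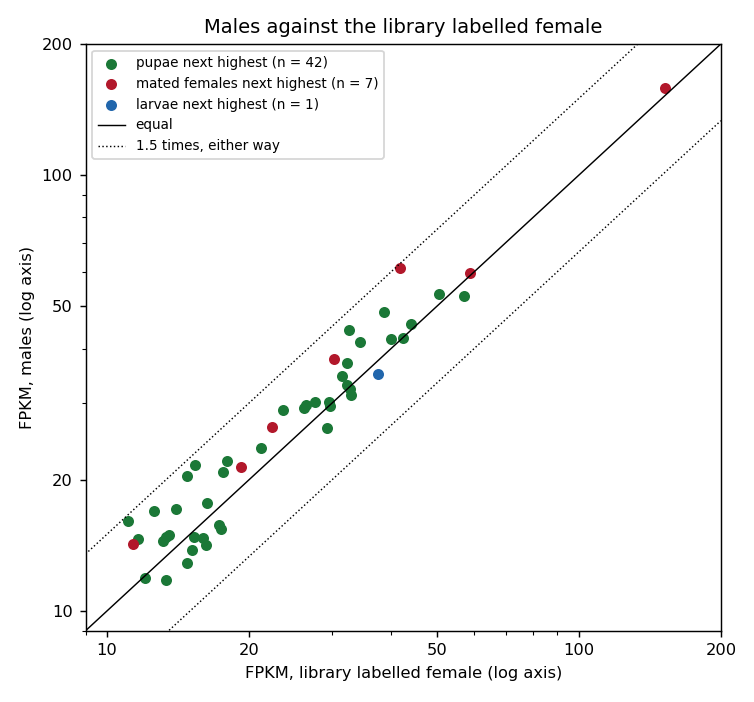
FPKM in males against FPKM in the library labelled female for the 50 members, both on log axes, coloured by the next highest library. The solid line marks equal levels and the dotted lines a ratio of 1.5 either way, and all 50 points lie between the dotted lines.

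The largest ratio was that of comp26850_c0 at 1.47 (interval 1.29 to 1.68), from 598 counts in males and 358 in the library labelled female. It was followed by comp30307_c0 at 1.45 (1.26 to 1.68), comp26358_c0 (ortholog FBgn0029667) at 1.41 (1.19 to 1.66), comp30232_c0 at 1.38 (1.22 to 1.58) and comp29229_c1 at 1.35 (1.23 to 1.48). For comp26358_c0 the levels were 21.58 FPKM in males and 15.35 FPKM in the library labelled female, and for comp30232_c0 they were 20.41 and 14.75 FPKM. The smallest ratios were those of comp28880_c0 at 0.869 (0.780 to 0.969), comp29928_c0 (ortholog FBgn0003429) at 0.871 (0.788 to 0.962), comp24515_c0 at 0.880 (0.678 to 1.14), comp21875_c0 (ortholog FBgn0052703) at 0.885 (0.777 to 1.01) and comp29788_c0 at 0.897 (0.811 to 0.992). Intervals for comp24515_c0 and comp21875_c0 held 1. Without replicates, the spread between libraries of the same sex is unknown, and no ratio can be called a difference between sexes.

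Isoform shares within a unigene were not used in the choice. At least 2 isoforms and 100 counts in both adult libraries were present for 28 members. The largest difference in isoform share between males and the library labelled female had a median of 9.19 percentage points over these members (lowest 0.948, highest 25.6), against 8.34 points over all 3355 such unigenes. It reached 10 points for 12 members (42.9%), against 42.2% of those unigenes. The same isoform led in both libraries for 21 members (75%), against 82.5%. The members were thus close to the other unigenes in each of these measures. RSEM divides reads that fit several isoforms, an error not included in the Wilson intervals.

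The widest difference was in comp30415_c0 (ortholog FBgn0030780), which had the most isoforms of any member, 7. Its levels were 28.84 FPKM in males and 23.58 FPKM in the labelled female library, against 3.89 FPKM in pupae and 0.07 FPKM in mated females, and the total was 1.22 times as high in males (interval 1.1 to 1.36). Isoform seq3 held 11.7% of the male counts (interval 9.59 to 14.0) and 37.3% of those labelled female (33.5 to 41.3), and seq9 held 41.1% in males (37.8 to 44.6), against 18.6% in the library labelled female (15.6 to 21.9). In comp29951_c0 the isoform seq10 held 34.7% in males (29.6 to 40.4), against 11.3% in the library labelled female (7.84 to 16.5). In comp24042_c0 (ortholog FBgn0031626), with 2 isoforms, seq1 held 56.6% in males (50.6 to 62.4), against 33.4% in the library labelled female (27.0 to 40.4), so the leading isoform differed. The unigene length of comp29928_c0, 6054 bp by the egg isoform mix, was the longest of the members, though single isoforms of other members were longer. Its isoform seq2 had 0 counts in males and 10.4% of the counts (8.50 to 12.8) in the library labelled female. Its isoform seq6 held 55.9% (52.4 to 59.3) in males and 34.8% (31.5 to 38.1) in the library labelled female. In comp27573_c0, seq1 held 77.0% in males (74.3 to 79.5), against 59.7% in the library labelled female (56.2 to 63.1).

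**Figure D4:**
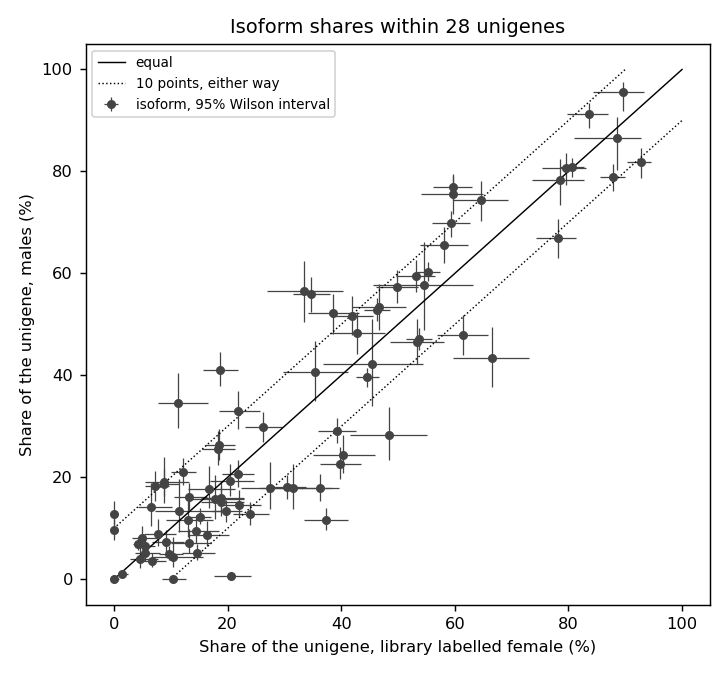
Share of each isoform in its unigene in males against that in the library labelled female, in percent of expected counts, for the 28 members with at least 2 isoforms and 100 counts in both libraries. Bars are 95% Wilson intervals, the solid line marks equal shares and the dotted lines 10 percentage points either way, beyond which isoforms of 12 members lie.

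A single isoform was assembled for 22 members (44.0%), against 59.6% of all unigenes and 41.5% of those with at least 11 FPKM in both adult libraries. The members had a median length of 2019 bp (672 to 6054 bp). It was 1808 bp over the 9596 unigenes with an egg count and 2000 bp over those with at least 11 FPKM in both adult libraries. The comparison of single isoforms with all unigenes turned round with the 80 further unigenes that met the rule once their levels were recomputed. Of all 130, 82 (63.1%) had a single isoform. Their median length was 1487 bp, which cannot be set against the 1808 bp, as that value leaves out unigenes without an egg count. When the same bounds were applied to other sets of libraries, 82 unigenes were found for pupae, males and the library labelled female together, and 43 for males, the library labelled female and mated females. Medians of the mean of both adult libraries were 25.3 FPKM for the 50 members, 48.0 FPKM for the 82 and 81.5 FPKM for the 43. Median lengths were 2019 bp for the members, 1414 bp for the 82 and 917 bp for the 43, and 44.0%, 59.8% and 67.4% had a single isoform. All 3 sets share the male and labelled female libraries, and no difference between them was tested.

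Many members stood near a bound. Just inside the lower bound of 11 FPKM, comp30307_c0, comp25907_c0 and comp24042_c0 had 11.06, 11.34 and 11.60 FPKM in the lower of both adult libraries, while comp26856_c0, comp28642_c0 and comp26762_c0 just missed it at 10.59, 10.5 and 10.49 FPKM. At the bound of 26 FPKM, comp27845_c0, comp29788_c0 and comp24001_c0 were inside at 26.18, 26.25 and 26.42 FPKM, and comp24790_c0, comp29498_c1 and comp29875_c0 outside at 25.85, 25.77 and 25.77 FPKM. In the highest other library, comp24515_c0, comp21875_c0 and comp30415_c0 were inside the bound of 4 FPKM at 3.94, 3.90 and 3.89 FPKM in pupae, and comp29788_c1, comp30385_c1 and comp28518_c0 outside at 4.04, 4.07 and 4.13 FPKM. At the bound of 11 FPKM, comp29469_c0, comp29229_c1 and comp30442_c0 were inside at 10.96, 10.90 and 10.81 FPKM, and comp30123_c0, comp25051_c0 and comp26894_c0 outside at 11.04, 11.14 and 11.42 FPKM. For each of these 24 values the exact Poisson interval of its library held the bound, so that counting error alone could have placed it on the other side. They were picked as the values nearest to a bound. How many of all members have such an interval was not counted.

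**Figure D5:**
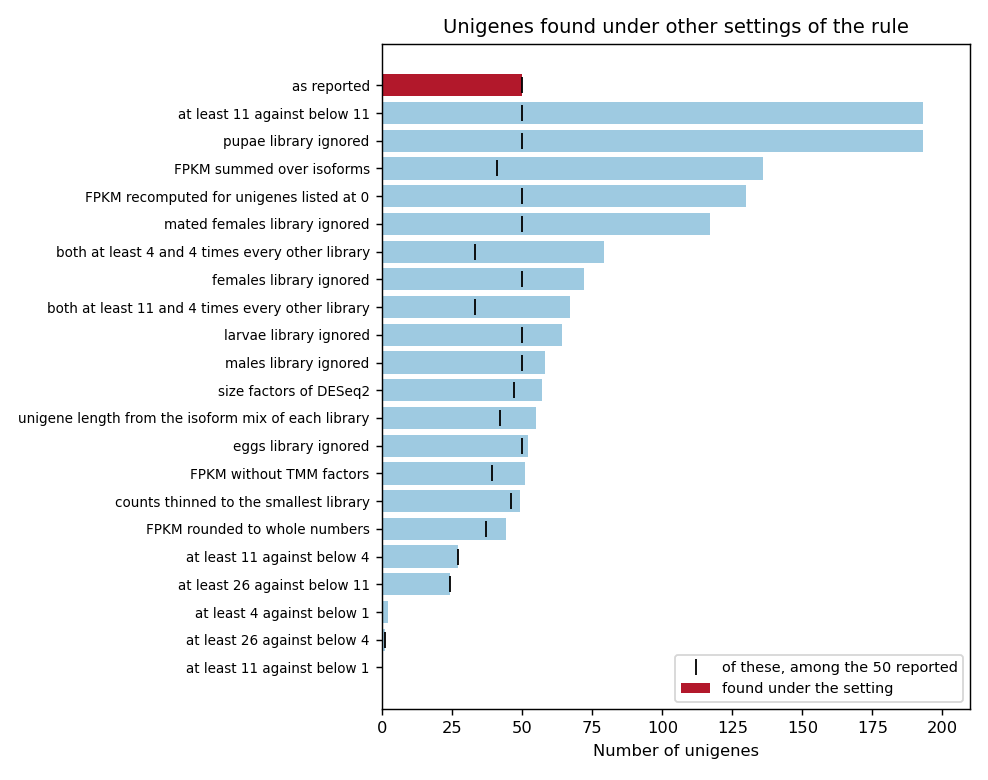
Number of unigenes found under other settings of the rule (bars, horizontal axis) and how many of the 50 members are among them (black ticks), with the rule as used in red at the top. Counts range from 0 with bounds of 11 and 1 FPKM to 193 with the pupal library ignored, and 39 of the 50 members are among the 51 unigenes found without TMM factors.

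Among the other 4 libraries, the pupal one kept out the most unigenes. Pupae alone excluded 143 unigenes that passed all other bounds, mated females alone 67, larvae alone 14 and eggs alone 2.

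Detoxification genes break down or remove plant compounds and insecticides, and 0 of those listed for the fly were members. The lists hold 92 cytochrome P450, 34 glutathione S-transferase (GST) and 23 UDP-glycosyltransferase (UGT) unigenes and 141 unigenes matched to genes that respond to the CncC/Keap1 regulators of the oxidative stress response in D. melanogaster. Of these, 42 P450, 29 GST, 11 UGT and 80 CncC/Keap1 unigenes had at least 11 FPKM in both adult libraries, and 1, 0, 0 and 8 of them had less than 4 FPKM in mated females, against 7.84% of all 4272 unigenes with that level in both. At the 0.463% of all unigenes that were members, 0 in lists of this size says nothing about the lists. The P450 was CYP6G2 (comp27796_c1), with 36.86 FPKM in males and 37.28 FPKM in the labelled female library, against 1.54 FPKM in eggs, 85.47 FPKM in larvae, 49.96 FPKM in pupae and 2.68 FPKM in mated females. It stood highest in larvae. The CncC/Keap1 unigene nearest to the bounds was rdgB (comp29770_c0), which in D. melanogaster encodes a phosphatidylinositol transfer protein needed in photoreceptors, with 12.11 FPKM in males and 14.82 FPKM in the labelled female library, against 3.78 FPKM in eggs, 2.57 FPKM in larvae, 4.56 FPKM in pupae and 3.54 FPKM in mated females. Both were named after their values were seen.

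The 0 also rests on the unigenes listed at 0 FPKM. With recomputed levels, 2 P450, 1 UGT and 1 CncC/Keap1 unigene met the rule, and 0 of the GST and sex determination lists. Among all 10799 unigenes, 130 met it. At that share, counts this small in lists of this size say nothing about the lists. The P450 CYP6A2 (comp22299_c0) had 59.2 FPKM in males and 89.6 FPKM in the labelled female library, against 0 FPKM in eggs, larvae and pupae and 4.69 FPKM in mated females. Its counts were 269 in males and 358 in the labelled female library, against 23 in mated females and 0 elsewhere. The P450 CYP6A18 (comp14461_c0) had 18.9 FPKM in males and 15.3 FPKM in the labelled female library, against 0 FPKM in eggs and larvae, 0.794 FPKM in pupae and 0.217 FPKM in mated females. The UGT comp25250_c0 and the CncC/Keap1 unigene CG3790 (comp27571_c0) had 11.1 and 14.8 FPKM in males and 11.2 and 11.3 FPKM in the labelled female library, against 0.737 and 3.12 FPKM in mated females. All 4 were named after their values were seen.

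The sex determination list, which covers the pathway that ends in dsx, also had 0 members among the 76 of its 77 unigenes present in the tables, too few to read anything from it at that share. At least 11 FPKM in both adult libraries was found for 33 of them, and 2 of those, comp29330_c0 and comp30559_c0, both matched to Notch, a receptor of signals between neighbouring cells, had less than 4 FPKM in mated females. In pupae they had 48.45 and 30.94 FPKM, above the bounds.

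A single D. melanogaster ortholog was listed for 27 members and several matches for 2, comp27525_c0 and comp27573_c0. With the protein domain of comp15270_c0 this leaves 20 members without annotation here. The annotation tables were used only in part. The study listed an ortholog only where the reciprocal top match was unique. A D. melanogaster gene could thus not be listed for more than 1 member, and whether the 27 are separate genes was not tested.

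The remaining members, all with pupae next, lay between these examples. Levels were between 31.27 and 41.38 FPKM in males for comp26037_c0 (ortholog FBgn0031944), comp18459_c0 (FBgn0085327), comp27525_c0, comp29842_c0 (FBgn0265726) and comp29866_c0, and 30.22 and 30.17 FPKM for comp30340_c0 (FBgn0023090) and comp26530_c0. The short unigenes, comp23049_c0 (FBgn0031109, 672 bp) and comp27173_c0 (852 bp), rested on only 146 and 123 counts in males and 115 and 119 in the library labelled female. The others, comp28685_c0, comp28595_c0 (FBgn0035776), comp24720_c0, comp25513_c0 (FBgn0085482), comp27490_c0, comp26001_c0 (FBgn0036931), comp29774_c0 (FBgn0031785), comp25083_c0, comp24736_c0 (FBgn0029657), comp23316_c0 and comp27178_c0, had between 11.90 and 20.83 FPKM in males and between 12.03 and 17.62 FPKM in the library labelled female. Of these 11, comp23316_c0 had the highest larval level, 2.49 FPKM.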

How the data were processed

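Each of the 6 stages of whole B. dorsalis gave 1 RNA library. The authors assembled the reads with Trinity, kept transcripts with a likely coding sequence, aligned each library with Bowtie (0.12.7) and estimated abundance with RSEM (1.2.0 per the labels, another version in the methods of the study). They deposited expected counts, not normalized, and FPKM scaled with TMM factors by the authors, for 10799 unigenes and 20666 isoforms. No genome was used.

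TMM factors (0.868 in larvae to 1.30 in eggs) and lengths were recovered from the ratio of deposited expected counts to deposited FPKM. Deposited unigene lengths followed the isoform mix of the egg library (median difference 0.0739%, against 1.74% to 3.24% for the other libraries, over 2966 unigenes), so that the 1203 unigenes without egg counts, which have no such mix, are listed at 0. Unigene levels and ranks of members with several isoforms rest on this egg mix in every library. Expected counts were rounded for intervals, which are exact Poisson for counts, exact binomial for ratios and Wilson for shares. No p-value could be had from single libraries.

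The members and lists were chosen with earlier results of these data known. Unigenes named were annotated members among the 3 highest of their class, the 10 highest means, the 5 highest and 5 lowest male to labelled female ratios, the 5 highest in mated females, in larvae and in eggs, the 5 lowest and 5 highest in pupae, the 3 nearest each bound, and the 5 with the largest isoform differences. The highest of those at 0 counts in mated females, neighbours of the same assembly component and the remaining members were named after their values were seen. The P450, GST, UGT, CncC/Keap1 and sex determination lists come from the study. Alternatives were FPKM without TMM factors or with DESeq2 (1.42.0) size factors, summed isoforms, recomputed or rounded FPKM, filters at 10 and 100 counts, thinning, other bounds, each library ignored and a pseudocount of 0.1 in place of 1. Bounds set as ratios and lengths from each library's isoform mix were added after the data were seen. Python 3.11.15 and R 4.3.3 were used.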

Additional observations from a re-analysis of the deposited data

Results flagged for a closer look

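A signal in unigenes that the deposited FPKM table cannot show was found for 80 unigenes. They have counts but 0 egg counts, are listed at 0 FPKM in every library, and met the bounds once FPKM was recomputed from their counts and isoform lengths. The recomputed mean of males and the library labelled female ranged from 11.2 to 117 FPKM with a median of 25.8 FPKM, from at least 73 counts in males and 53 in the library labelled female. Pupae were the next highest library for 62 of them and mated females for 18, and 48 had 0 counts in mated females. The highest was comp20094_c0 (ortholog FBgn0011281), with 143 FPKM in males and 91.2 FPKM in the library labelled female, against 0 FPKM in eggs and larvae, 6.13 FPKM in pupae and 3.75 FPKM in mated females. Next named is comp22173_c0, with 69.1 FPKM in males and 110.2 FPKM in the library labelled female, against 0 FPKM in eggs, 0.502 FPKM in larvae, 0.30 FPKM in pupae and 7.54 FPKM in mated females. Both were named after their values were seen.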

How the results depend on the processing

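No paired analysis was possible because each group has 1 library. The number of members depended on the bounds, on how FPKM was formed and on the libraries used. It was 136 with FPKM summed over isoforms (41 of the 50 members among them) and 130 with FPKM recomputed for unigenes listed at 0 (all 50), with pupae next for 104 unigenes in each case. It was 27 with bounds of 11 and 4 FPKM, 24 with 26 and 11, 1 with 26 and 4, 193 with 11 and 11, 2 with 4 and 1, and 0 with 11 and 1. Ignoring pupae gave 193 and ignoring mated females 117. A ratio of 4 over every other library, added after the data were seen, gave 79 from 4 FPKM upwards (33 of the 50) and 67 from 11 FPKM upwards (33 of the 50). Counts stayed within 1.5 times of 50 without TMM factors (51, of which 39 members), with DESeq2 size factors (57, of which 47), with rounding (44, of which 37), with thinning (49, of which 46) and with lengths from each library's isoform mix (55, of which 42). A pseudocount of 0.1 raised the median log2 ratio to 6.26 for males over mated females and 6.28 for the library labelled female over mated females. The log2 ratio of summed FPKM was 2.65 for males over pupae and 2.53 for the library labelled female over pupae. By summed FPKM the members took 0.251% in males and 0.240% in the library labelled female. Depth limits the low libraries, where the exact interval of a count of 0 reaches up to 3.69.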
